A study of Mus musculus with 8 samples.

Results

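Transcripts of the axonemal dynein family were compared between *Mgat2* cKO and control germ cells. The set holds every gene of the deposited table whose symbol is *Dnah*, *Dnai*, *Dnal*, *Dnali*, *Dnaaf* or *Odad* followed by a number, and in addition *Zmynd10* and *Daw1*. These were 37 of 55357 genes: 15 heavy chains, 4 intermediate chains, 3 light chains, 4 docking factors and 11 assembly factors. RNA came from germ cells of C57BL/6 testes at 15 days after birth, from 4 control *Mgat2*[F/F] males and 4 *Mgat2*[F/F]:*Stra8*-iCre (cKO) males, with 1 library per mouse. Both genotypes carry floxed *Mgat2* alleles, and the cKO males also carry *Stra8*-iCre, a Cre transgene expressed from the spermatogonial stage. MGAT2 is the GlcNAc-transferase that allows hybrid N-glycans to become complex N-glycans. Replicates were numbered 1 to 4 within each genotype by the labels.

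Axonemal dyneins are the motors of cilia and of the sperm flagellum. Heavy chains carry the ATPase motor and are joined by intermediate and light chains into outer and inner arms, the docking complex fixes the outer arms to the doublet microtubules, and cytoplasmic assembly factors fold and assemble the arms before they enter the axoneme. In the testis many of these genes, though not all, are transcribed in meiotic and later germ cells, ahead of flagellum growth in spermatids.

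Each library held between 12584726 and 15907505 expected counts, and 3 counts corresponded to between 0.189 and 0.238 CPM (a count scaled to the size of its library). A gene was tested where its TPM (a level scaled for transcript length and for the library) was at least 1 in at least 1 sample, which kept 20187 genes and 33 of the 37 members, each of these 33 with such a sample in both genotypes. *Mgat2*, the deleted gene, was at 69.8, 31.8, 64.3 and 59.8 CPM in controls 1 to 4 and at 35.3, 20.1, 37.6 and 16.0 CPM in cKO 1 to 4. The genotypes overlapped, since control 2 lay below cKO 1 and cKO 3, and the log2 fold change was -1.05 ± 0.36 (SE; edgeR, adjusted p = 0.47; DESeq2, adjusted p = 0.025). The cells were labelled as germ cells, and the meiotic genes *Sycp3*, *Sycp1* and *Hormad1* were at 128 CPM or more in every library. Transcripts of Sertoli cells, the somatic cells of the tubule, were also abundant, with 10 marker genes summing to between 6940 and 8700 TPM in controls and between 7420 and 8720 TPM in cKO.

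Transcripts of the axonemal dynein set were lower in cKO for 32 of the 33 tested members, with a median log2 fold change of -1.24 against 0.007 over all genes tested, but none was called after adjustment in edgeR. In CPM normalised by TMM (trimmed mean of M values), log2 fold changes (cKO over control) ran from -2.61 for *Dnah6* to 0.84 for *Dnaaf6b*, and 19 members were at -1 or below. Without control 1, which had the highest levels, the median was -0.68. In edgeR's quasi-likelihood F-test, with p adjusted by Benjamini-Hochberg over the whole table, 0 of 33 members passed an adjusted p of 0.05 (range 0.24 to 0.90), where 0.0396% of all genes were called lower. At an unadjusted p under 0.05, edgeR gave 19 members as lower, against 6.28% of all genes, and 1 member as higher, against 2.62% of all genes. DESeq2, the tool used in the study, called 4 members lower (*Daw1*, *Dnah7b*, *Dnai1* and *Dnaaf6*), where it called 1.75% of the genes it tested lower, and at an unadjusted p under 0.05 it gave 25 members as lower, against 7.27% of genes. limma-voom called 0 members, with 24 lower at an unadjusted p under 0.05, against 7.18% of genes. Every cKO sample lay below every control sample for 6 members (*Dnah7a*, *Dnah7b*, *Dnah7c*, *Dnai1*, *Odad1* and *Dnaaf6*), against 3.03% of all genes, and above every control for *Dnaaf6b* alone, against 2.47% of all genes. These libraries hold several cell types, so fewer cells of a type and less RNA per cell cannot be told apart.

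**Figure D1:**
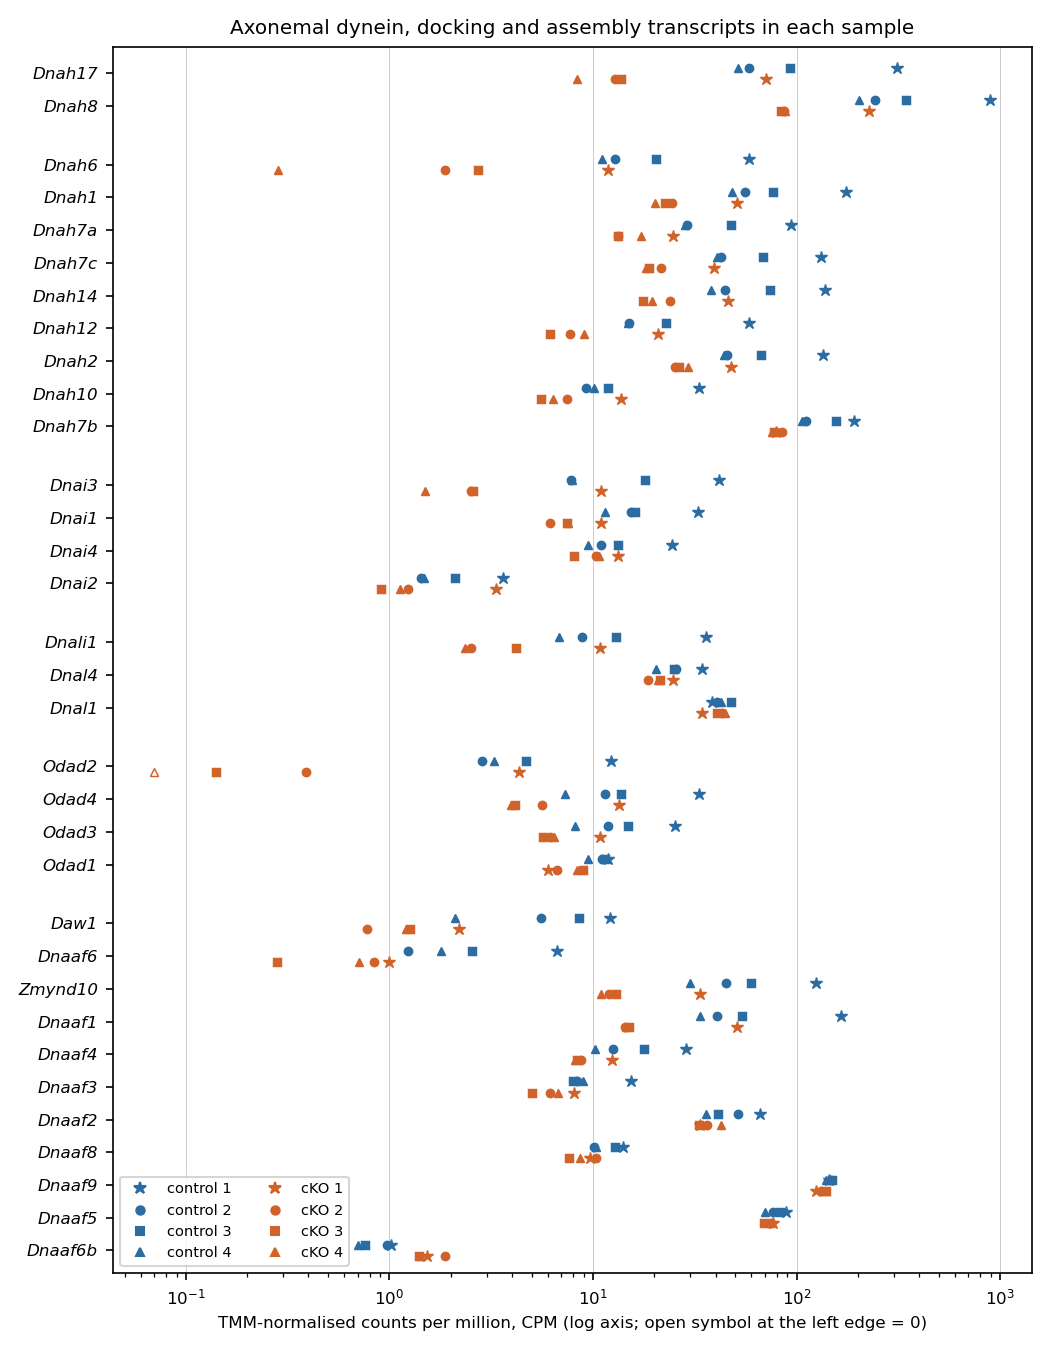
Each row is 1 of the 33 tested members, grouped from top to bottom as outer arm heavy chains, inner arm heavy chains, intermediate chains, light chains, docking factors and assembly factors, and the x axis (log scale) gives TMM-normalised CPM in each of the 4 control (blue) and 4 cKO (orange) samples. Symbols mark the replicate number, the star being replicate 1, which is the highest control for 31 members and the highest cKO sample for 26.

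The members were sorted by level per length in the controls to show which dynein isoforms these cells transcribe. Among the 5 outer arm heavy chains, *Dnah8* and *Dnah17*, which encode the outer arm motors of the sperm flagellum, were at 62.8 ± 45.3 and 15.1 ± 13.6 TPM (SD, n = 4). *Dnah5*, *Dnah9* and *Dnah11*, their counterparts in motile cilia of other tissues, were at 0.0775, 0.412 and 0.333 TPM on average and were not tested. Among the 10 inner arm heavy chains, *Dnah7a* (21.4 TPM), *Dnah7b* (20.9 TPM), *Dnah14* (15.7 TPM), *Dnah2* (14.6 TPM) and *Dnah1* (14.1 TPM) were close to one another relative to their SDs of 4.63 to 10.7 TPM. *Dnah7c* was at 9.34 TPM, and *Dnah12*, *Dnah6* and *Dnah10* were at 3.63, 3.18 and 2.71 TPM. *Dnah3* was at 0.02 TPM, with no library above 2 counts, and was not tested. *Dnah8* was the highest heavy chain in controls and at 25.6 ± 18.2 TPM also in cKO, with cKO 1 the highest of these.

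**Figure D2:**
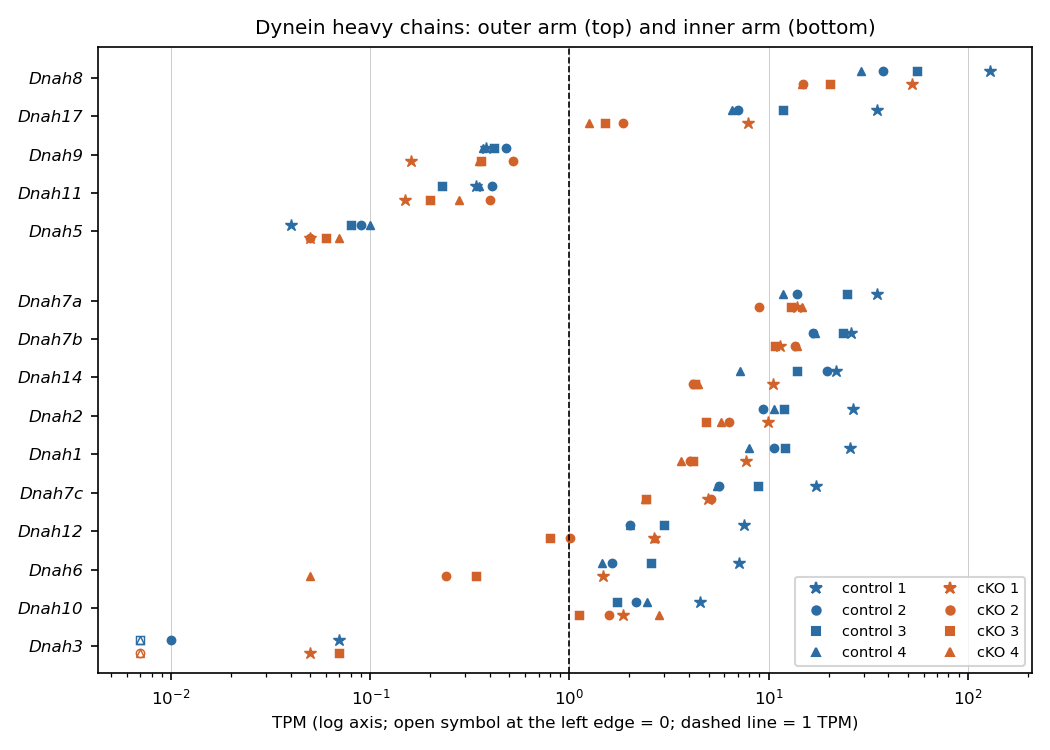
Levels of the 15 heavy chains in TPM (x axis, log scale) in each control (blue) and cKO (orange) sample, with outer arm chains at the top and inner arm chains at the bottom, each sorted by control mean. *Dnah5*, *Dnah9*, *Dnah11* and *Dnah3* stay left of the dashed line at 1 TPM in all 8 samples.

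The 11 tested heavy chains had a median log2 fold change of -1.53 (-1.02 without control 1). All were below 0, as were 9817 of the 20187 genes tested. At an unadjusted p under 0.05 in edgeR, 8 were lower, against 6.28% of all genes. The outer arm chains among the 11 had log2 fold changes near -2 with wide errors. *Dnah8* (chromosome 17, 30843328 to 31096339, plus strand, 93 exons in GRCm39) was at 895, 242, 347 and 203 CPM in controls 1 to 4 and at 228, 86.7, 83.6 and 87.8 CPM in cKO 1 to 4. Of the cKO samples, cKO 2, 3 and 4 lay below every control, and cKO 1 lay between controls 4 and 2. The log2 fold change was -1.79 ± 0.62 (SE; edgeR, adjusted p = 0.49). *Dnah17* (chromosome 11, 117912549 to 118021460, minus strand) was at 312, 58.7, 92.8 and 51.3 CPM in controls and at 71.0, 12.9, 13.7 and 8.30 CPM in cKO. The same cKO samples were apart from the controls, while cKO 1 exceeded controls 2 and 4, and the log2 fold change was -2.28 ± 0.96 (edgeR, adjusted p = 0.57).

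All 9 tested inner arm heavy chains had a log2 fold change below 0, with a median of -1.47. At an unadjusted p under 0.05 in edgeR, 7 of them were lower, against 6.28% of all genes. The *Dnah7* genes encode single-headed inner arm motors and lie on chromosome 1, with *Dnah7b* (46105475 to 46412710) and *Dnah7c* (46464752 to 46846636) next to each other on the plus strand and *Dnah7a* (53436165 to 53746005) on the minus strand. *Dnah7b* was at 192, 111, 157 and 107 CPM in controls and at 79.7, 85.0, 77.9 and 76.0 CPM in cKO. The cKO samples lay close together and below all controls, with a log2 fold change of -0.83 ± 0.18 (edgeR, adjusted p = 0.28; DESeq2, adjusted p = 0.00099). *Dnah7a* was at 93.8, 28.9, 47.8 and 28.3 CPM in controls and at 24.8, 13.2, 13.3 and 17.2 CPM in cKO, a log2 fold change of -1.54 ± 0.46. *Dnah7c* was at 132, 42.8, 68.4 and 40.8 CPM in controls and at 39.2, 21.7, 18.9 and 18.2 CPM in cKO, a log2 fold change of -1.53 ± 0.48. Both were apart between genotypes, with an adjusted p of 0.44 and 0.45 in edgeR. The 3 transcripts share between 12.2% and 17.2% of their 100-base windows, so reads could be divided among them and their separate values are uncertain.

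*Dnah6*, another single-headed inner arm motor, had the lowest log2 fold change of the set, -2.61 ± 1.05 (edgeR, adjusted p = 0.55). It was at 58.2, 12.8, 20.5 and 11.1 CPM in controls and at 11.9, 1.88, 2.72 and 0.284 CPM in cKO. The value of cKO 1 lay within the controls, and that of cKO 4 was 4 counts. *Dnah1*, an inner arm chain needed for the sperm flagellum, was at 175, 55.6, 76.6 and 48.2 CPM in controls and at 51.2, 24.5, 22.5 and 20.1 CPM in cKO (log2 fold change -1.59 ± 0.54; edgeR, adjusted p = 0.48). Only cKO 1 lay within the range of the controls. *Dnah14* and *Dnah2* had log2 fold changes of -1.47 and -1.17 with an unadjusted p of 0.030 and 0.032. *Dnah2* and *Dnah10* encode the motor pair of the two-headed inner arm, and *Dnah10* was at 33.3, 9.21, 11.9 and 10.1 CPM in controls and 13.7, 7.44, 5.58 and 6.38 CPM in cKO. As for *Dnah12* (-1.34), the difference for *Dnah10* (-0.96) did not reach an unadjusted p of 0.05. Exons of *Dnah1* and *Dnah14* overlap those of *Bap1* and *Lbr* on the opposite strand over 9.26% and 8.40% of their length, and reads of such stretches cannot be assigned by strand in these non-stranded libraries. Expected counts were whole in every library for *Dnah1* but not for *Dnah14*.

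Intermediate and light chains had a median log2 fold change of -0.45 over 7 genes (-0.14 without control 1 and -0.97 without cKO 1). Of these, 2 were lower at an unadjusted p under 0.05 in edgeR, against 6.28% of all genes. *Dnai1* and *Dnai2* encode the outer arm intermediate chains. *Dnai1* (chromosome 4, 41569193 to 41638158, plus strand) was at 32.7, 15.3, 16.1 and 11.5 CPM in controls and at 10.9, 6.15, 7.47 and 7.52 CPM in cKO. The genotypes did not overlap, although cKO 1 came within 1 CPM of control 4, and the log2 fold change was -1.24 ± 0.32 (edgeR, adjusted p = 0.34; DESeq2, adjusted p = 0.011). *Dnai2* was low in both genotypes, at 3.60, 1.43, 2.09 and 1.48 CPM in controls and 3.32, 1.23, 0.907 and 1.13 CPM in cKO, and its log2 fold change of -0.38 ± 0.47 had an unadjusted p of 0.43. The intermediate chain genes of the two-headed inner arm, *Dnai3* and *Dnai4*, had unlike values. *Dnai3* was at 41.7, 7.78, 18.1 and 7.89 CPM in controls and 11.0, 2.52, 2.58 and 1.49 CPM in cKO (log2 fold change -2.10 ± 0.86; edgeR, adjusted p = 0.56), with cKO 1 above controls 2 and 4. *Dnai4* had a log2 fold change of -0.45 ± 0.29, and 1 cKO sample lay below every control.

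*Dnali1*, the light chain gene of the single-headed inner arms, was at 35.9, 8.82, 13.0 and 6.79 CPM in controls and at 10.8, 2.52, 4.19 and 2.34 CPM in cKO (log2 fold change -1.70 ± 0.74; edgeR, adjusted p = 0.57). Again cKO 2, 3 and 4 lay below every control and cKO 1 did not. *Dnal1*, which encodes an outer arm light chain that binds a heavy chain motor domain, was at 38.3 to 47.7 CPM in controls and 34.3 to 44.4 CPM in cKO, with a log2 fold change of -0.061 ± 0.11. *Dnal4*, another outer arm light chain, was at 20.3 to 34.5 CPM in controls and 18.6 to 24.8 CPM in cKO, with a log2 fold change of -0.30 ± 0.16. For neither of these genes were more than 1 of the 4 cKO samples below the lowest control.

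The 4 docking factor genes, which encode subunits of the outer arm docking complex, had a median log2 fold change of -1.16 (-0.68 without control 1). At an unadjusted p under 0.05 in edgeR, 2 were lower, against 6.28% of all genes. *Odad2* was represented by 181, 44, 74 and 42 counts in controls and by 65, 6, 2 and 0 counts in cKO. Thus cKO 3 and cKO 4 were under the floor of 3 counts, whereas cKO 1 exceeded controls 2 and 4. The fitted log2 fold change was -2.24 ± 1.23 over all samples (edgeR, adjusted p = 0.64). Over replicates 2 to 4, a choice made after seeing the data, it was -4.25 (edgeR, adjusted p = 1.2e-06). That p cannot be set beside the value from all samples, since the choice left out the overlapping cKO 1. *Odad1* was at 11.9, 11.1, 11.4 and 9.45 CPM in controls and 6.04, 6.67, 8.93 and 8.37 CPM in cKO. This was a smaller difference, of -0.55 ± 0.18 on the log2 scale, but the genotypes did not overlap (edgeR, unadjusted p = 0.0092, adjusted p = 0.42). For *Odad1*, replicate 1 was the lowest cKO sample, unlike for most members. *Odad3* (-1.05 ± 0.34) and *Odad4* (-1.27 ± 0.60) had cKO 2, 3 and 4 below every control, at 5.65 to 6.45 CPM and 3.97 to 5.63 CPM, and cKO 1 at 10.8 and 13.4 CPM within the controls.

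The 11 assembly factor genes had the widest range, with a median log2 fold change of -0.64 (-0.37 without control 1). At an unadjusted p under 0.05 in edgeR, 7 were lower, against 6.28% of all genes, and 1 higher, against 2.62%. *Daw1* (chromosome 1, 83137473 to 83188295, plus strand) encodes an adaptor that carries outer arms into the axoneme. It was at 12.1, 5.58, 8.53 and 2.11 CPM in controls and at 2.19, 0.777, 1.26 and 1.21 CPM in cKO. Only control 4 and cKO 1 overlapped, and *Daw1* had the lowest p of the set in edgeR (log2 fold change -2.38 ± 0.51, unadjusted p = 0.00098, adjusted p = 0.24; DESeq2, adjusted p = 0.00085). *Zmynd10* (chromosome 9, 107424488 to 107428518, plus strand), a zinc-finger assembly factor of both arms, had the highest control level of the assembly factors at 102 ± 60.9 TPM (SD, n = 4). In CPM it was at 125, 45.0, 59.6 and 30.1 in controls and at 33.7, 12.0, 13.0 and 10.9 in cKO, a log2 fold change of -1.90 ± 0.59 (edgeR, adjusted p = 0.45; DESeq2, adjusted p = 0.054). The value of cKO 1 again lay within the controls.

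*Dnaaf6* and *Dnaaf6b* were on opposite sides of 0. The table's *Dnaaf6* is a gene of 1 exon on chromosome 1 (31261919 to 31263369, plus strand, GRCm39), named *Dnaaf6rt* in GENCODE, and *Dnaaf6b* is a gene of 7 exons on chromosome X (138963615 to 139007566, plus strand), named *Dnaaf6* there. Both were low. *Dnaaf6* had 98, 19, 40 and 23 counts in controls and 15, 13, 4 and 10 counts in cKO, and after normalisation no cKO sample reached the lowest control (log2 fold change -2.10 ± 0.56; edgeR, adjusted p = 0.32; DESeq2, adjusted p = 0.037). *Dnaaf6b* had 15, 15, 12 and 9 counts in controls and 23, 29, 20 and 20 counts in cKO, and every cKO sample was above every control (log2 fold change 0.84 ± 0.35; edgeR, unadjusted p = 0.033, adjusted p = 0.52; DESeq2, adjusted p = 0.41). Over the 762 tested genes of chromosome X the median log2 fold change was 0.13 and 77.4% were above 0, against 0.002 and 50.4% over 19270 autosomal genes. The part of the chromosome in the *Dnaaf6b* value was not tested.

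Promoters were read for 27 of the 37 members (RefSeq, GRCm38.p6, 250 bases before to 50 after the transcript start), and the other 10 had no entry. Windows were searched on both strands for an inverted repeat of the kind bound by RFX factors, regulators of cilium genes. The strict form, GTTNCCNNGGNAAC, was found in *Dnaaf6* (bases -59 to -46) and *Dnaaf6b* (-7 to 7) alone among the 27, and in 0.53% of 27025 genes. A looser form that contains it, GTNNCCNNGGNNAC, was found in 5 members (*Dnaaf6*, *Dnaaf6b*, *Daw1*, *Zmynd10* and *Dnaaf5*) and in 2.16% of genes. Only inverted repeats with the spacing and core of these forms were searched. Repeats of other spacing, as in the windows of *Dnah6* and *Dnah7a*, were not counted, so members without a match can still hold such a repeat. The single arm GTTGCC, which can lie inside either form, was found in 11 of the 27 and in 14.14% of genes. Shown here are the windows of the *Dnaaf6* pair, since they had opposite fold changes, and of *Daw1* and *Zmynd10*, which had log2 fold changes near -2. They were picked after these values were seen. *Dnaaf5*, which also holds the looser form and is not shown, had a log2 fold change of -0.11. A link between match and fold change was not tested. Capitals mark the match.
*Dnaaf6*, chr1:31222589-31222888, plus strand: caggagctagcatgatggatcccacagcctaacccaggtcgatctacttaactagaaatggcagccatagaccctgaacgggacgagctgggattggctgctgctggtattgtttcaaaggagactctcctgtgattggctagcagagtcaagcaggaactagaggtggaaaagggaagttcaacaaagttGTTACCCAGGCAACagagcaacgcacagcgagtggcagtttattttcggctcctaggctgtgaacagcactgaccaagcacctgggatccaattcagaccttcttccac
*Dnaaf6b*, chrX:140062629-140062928, plus strand: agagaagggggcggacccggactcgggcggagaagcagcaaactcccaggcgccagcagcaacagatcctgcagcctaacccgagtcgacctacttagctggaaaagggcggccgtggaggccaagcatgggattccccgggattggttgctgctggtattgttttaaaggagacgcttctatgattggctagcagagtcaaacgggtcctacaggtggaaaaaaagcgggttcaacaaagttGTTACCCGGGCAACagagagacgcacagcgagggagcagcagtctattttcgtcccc
*Daw1*, chr1:83159505-83159804, plus strand: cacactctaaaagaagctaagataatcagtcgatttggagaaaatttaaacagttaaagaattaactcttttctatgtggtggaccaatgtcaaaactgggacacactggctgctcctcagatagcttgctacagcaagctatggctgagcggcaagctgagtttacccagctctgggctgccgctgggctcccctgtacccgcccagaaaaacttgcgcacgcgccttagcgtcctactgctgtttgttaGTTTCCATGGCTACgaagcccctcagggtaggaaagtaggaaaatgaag
*Zmynd10*, chr9:107547054-107547353, plus strand: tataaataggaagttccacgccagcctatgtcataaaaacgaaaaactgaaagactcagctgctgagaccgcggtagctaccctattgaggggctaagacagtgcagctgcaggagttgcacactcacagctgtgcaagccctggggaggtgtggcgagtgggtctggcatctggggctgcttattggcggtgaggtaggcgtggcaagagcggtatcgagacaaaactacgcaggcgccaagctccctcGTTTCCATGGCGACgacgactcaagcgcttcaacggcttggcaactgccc
Over 244 aligned bases, 197 (80.7%) were identical between the *Dnaaf6* and *Dnaaf6b* windows, and 13 of the 14 bases of the match were the same. A match of letters is a description and does not show binding.

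The log2 fold changes of the other assembly factors ran from -1.64 for *Dnaaf1* to -0.11 for *Dnaaf5*. *Dnaaf1*, which encodes a leucine-rich repeat assembly factor, was at 166, 40.7, 53.8 and 33.5 CPM in controls and at 50.8, 14.3, 15.0 and 14.5 CPM in cKO (log2 fold change -1.64 ± 0.72; edgeR, adjusted p = 0.58). With the exception of cKO 1, which was near control 3, the cKO samples were less than 1 CPM apart and below every control. *Dnaaf4*, a partner of the HSP90 chaperone machinery, was at 28.6, 12.5, 17.8 and 10.2 CPM in controls and 12.4, 8.74, 8.38 and 8.16 CPM in cKO (log2 fold change -0.88 ± 0.30). *Dnaaf3* (-0.64 ± 0.24) and *Dnaaf8* (-0.38 ± 0.17) had an unadjusted p of 0.021 and 0.046, and 3 of 4 cKO samples lay below every control for both. *Dnaaf5* was at 69.7 to 89.3 CPM in controls and 69.4 to 76.9 CPM in cKO, and *Dnaaf9* was at 139 to 149 and 124 to 140 CPM, with log2 fold changes of -0.11 ± 0.09 and -0.12 ± 0.07 (edgeR, unadjusted p = 0.24 and 0.096).

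*Dnaaf2*, which encodes a PIH-domain assembly factor, lies 1377 bases from *Mgat2* on chromosome 12 (*Dnaaf2*, 69234922 to 69245203, minus strand; *Mgat2*, 69230931 to 69233544, plus strand). It was at 66.3, 51.6, 41.1 and 35.8 CPM in controls and 33.5, 36.2, 33.2 and 42.6 CPM in cKO. The cKO 4 sample was above controls 3 and 4 and cKO 2 above control 4, and the log2 fold change was -0.42 ± 0.18 (edgeR, unadjusted p = 0.037, adjusted p = 0.53). Exons of other genes overlap 26.4% of *Dnaaf2* (*9330151L19Rik*), 21.6% of *Dnaaf1* (*Taf1c*), 47.4% of *Dnaaf4* (*Gm37710*), 34.3% of *Zmynd10* (*Gm34106*) and 17.6% of *Dnaaf3* (*Tnni3*), and counts of these stretches can be uncertain. Expected counts were whole in every library for *Zmynd10* and *Dnaaf3*, but not for *Dnaaf1*, *Dnaaf2* and *Dnaaf4*.

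**Figure D3:**
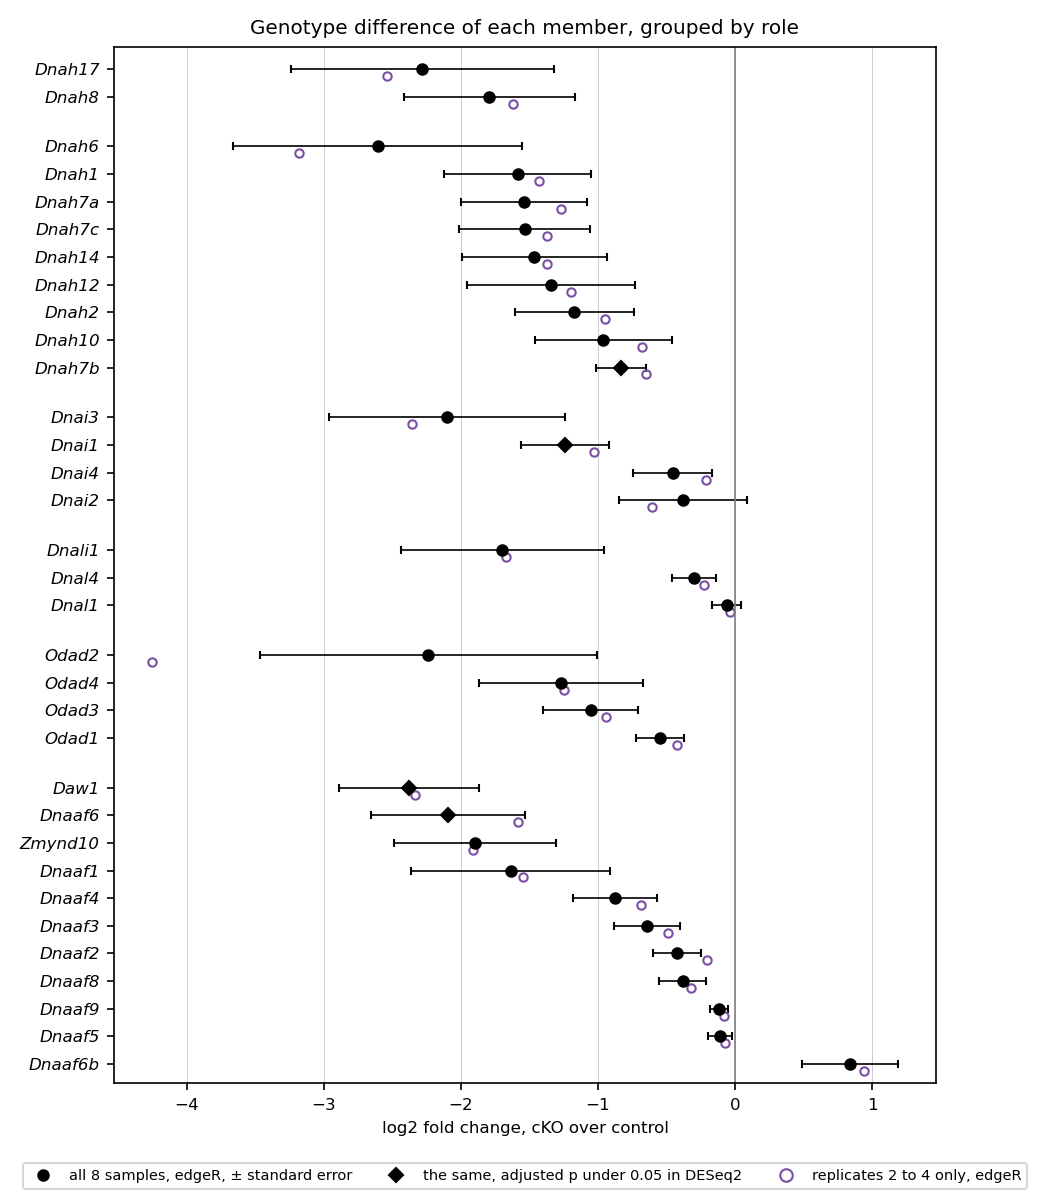
Log2 fold change (x axis, cKO over control) of each tested member with its standard error from edgeR over all 8 samples (black), in the same groups as above. Diamonds mark the 4 members that DESeq2 called. Open circles give edgeR's value from replicates 2 to 4 alone, which for *Odad2* is -4.25. This subset was chosen after seeing the data.

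Replicate 1 stood apart from the others in both genotypes for these genes. Control 1 was the highest control for 31 of 33 members, against 35.8% of all genes tested, and cKO 1 was the highest cKO sample for 26 members, against 36.1% of all genes. Control 4 was the lowest control for 25 of the 33 members, and the share over all genes was not computed. For most members the lowest control in these comparisons is therefore control 4. The median member was 2.59-fold higher in control 1 than in the mean of controls 2 to 4, and 1.77-fold higher in cKO 1 than in the mean of cKO 2 to 4, where the median gene was at 0.989 and 0.988. The summed level of the 37 members was 1039, 499, 597 and 426 TPM in controls 1 to 4 and 432, 294, 297 and 305 TPM in cKO 1 to 4. In 23 of 33 members cKO 1 was at or above the lowest control, whereas cKO 2, 3 and 4 were all below every control in 25 members, against 8.97% of all genes. Leaving out cKO 1 in this count was decided after its values were seen. Over all samples, every cKO sample was below every control for 6 members, against 3.03% of all genes. With replicates 2 to 4 only, a choice made after seeing the data, edgeR called 18 of 33 members, all lower, against 3.78% of all genes, and the median log2 fold change was -1.03. The heavy chains held 8 of these calls, intermediate and light chains 3, docking factors 3 and assembly factors 4. Members that were high in control 1 were also high in cKO 1, with a correlation of the log2 ratios of 0.815 across the 33 members and 0.507 across all genes, which share the same libraries.

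**Figure D4:**
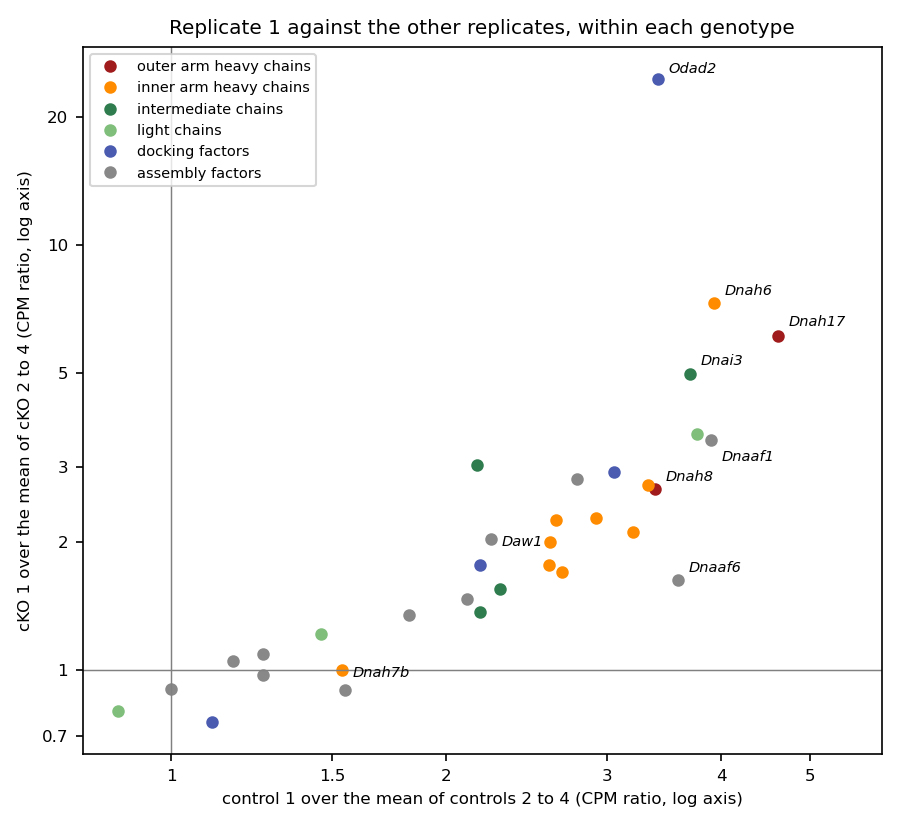
For each of the 33 tested members, the x axis gives the CPM of control 1 over the mean of controls 2 to 4 and the y axis the CPM of cKO 1 over the mean of cKO 2 to 4, both on log axes, with colour for the role and grey lines at a ratio of 1. Most members lie above 1 on both axes, and *Odad2*, *Dnah6* and *Dnah17* are the highest on the y axis.

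Genes of the same pathway outside the naming rule and genes of the related cytoplasmic motor were set beside the members. Of 17 tested genes of dynein arms and preassembly with other names, 16 had a log2 fold change below 0, with a median of -0.57. The edgeR test called 0, with 6 at an unadjusted p under 0.05, all lower, against 6.28% of all genes. The 4 with the highest control TPM, *Ruvbl1*, *Pih1d1*, *Cfap298* and *Ruvbl2*, which encode chaperone and preassembly partners, had log2 fold changes of -0.15, -0.26, -0.49 and -0.37. DESeq2 called *Ccdc39*, the ruler protein that sets the spacing of inner arms along the doublet (named after its value was seen), which was at 97.4, 68.5, 115 and 54.0 CPM in controls and 35.8, 23.1, 27.6 and 34.6 CPM in cKO (adjusted p = 2.6e-07; edgeR, adjusted p = 0.21). It also called *Lrrc56*, an outer arm transport factor, at a log2 fold change of -0.80 (adjusted p = 0.032), likewise named after its value was seen. The 17 genes of cytoplasmic dyneins, whose motors move cargo along cytoplasmic microtubules or inside cilia, had a median of -0.15 and a range of -0.61 to 0.28. Of these, 6 were lower at an unadjusted p under 0.05 in edgeR, against 6.28% of all genes, and 2 higher, against 2.62%. After adjustment edgeR and limma-voom called 0, and DESeq2 called 2 lower, against 1.75% of the genes it tested. The 4 with the highest control TPM, the light chain genes *Dynll1*, *Dynlt1f*, *Dynlt1b* and *Dynlrb1*, had log2 fold changes of -0.056, -0.35, -0.43 and 0.24. The DESeq2 calls (named after their values were seen) were *Dync2h1* and *Dync2i1*, the heavy chain and an intermediate chain of the motor of intraflagellar transport. *Dync2h1* was at 250, 173, 208 and 167 CPM in controls and 130, 132, 132 and 128 CPM in cKO. The genotypes did not overlap, and its log2 fold change of -0.61 ± 0.11 had an adjusted p of 0.14 in edgeR, below that of any axonemal dynein member, and of 0.00085 in DESeq2. *Dync2i1* had a log2 fold change of -0.58 ± 0.14 (DESeq2, adjusted p = 0.018; edgeR, adjusted p = 0.25). The heavy chain of the other motor, *Dync1h1*, also named after its value was seen, had a log2 fold change of -0.14 ± 0.06.

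Among 6 tested regulators of motile cilium genes the median log2 fold change was -0.27. *Rfx2*, which encodes a factor needed for spermatid genes, was at 124, 57.2, 74.9 and 46.7 CPM in controls and 54.8, 39.0, 36.0 and 43.0 CPM in cKO (log2 fold change -0.81 ± 0.31; edgeR, adjusted p = 0.53). *Mybl1* and *Rfx1*, the next by control TPM, had log2 fold changes of -0.14 and 0.13. *Rfx4* was at 26.8, 9.53, 17.1 and 9.06 CPM in controls and 7.30, 2.52, 3.70 and 1.84 CPM in cKO, and was the 1 regulator called by DESeq2 (adjusted p = 0.0014; edgeR, adjusted p = 0.35). *Foxj1*, the main regulator of motile cilia in epithelia (named after its value was seen), was at 1.56 to 3.66 CPM in controls and 1.13 to 2.58 CPM in cKO, and *Gmnc* and *Mcidas* were below the TPM filter.

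Marker transcripts of germ cell stages and of other cell types were summed to set their levels beside those of the members. The 10 pachytene spermatocyte markers summed to 3140, 1280, 1630 and 1030 TPM in controls 1 to 4 and to 1070, 587, 588 and 564 TPM in cKO 1 to 4, with a median log2 fold change of -1.23, near that of the members, and replicate 1 highest in both genotypes. Of these 10, 3 were lower at an unadjusted p under 0.05 in edgeR, against 6.28% of all genes, and 0 were called. DESeq2 called 1, *Piwil1* (adjusted p = 0.035), where it called 1.75% of the genes it tested lower. *Ybx2*, *Ldhc*, *Hspa2* and *Piwil1*, those of highest control TPM, had log2 fold changes of -1.28, -1.95, -0.97 and -2.05. Over the 10 markers the log2 fold changes ran from -2.05 to 0.042, with 9 below 0. *Mybl1*, at -0.14, is in this list and in that of the regulators. The spermatogonial markers had a median of 0.20 and summed to between 888 and 1060 TPM in controls and between 1020 and 1240 TPM in cKO, with *Id4* called lower by DESeq2 (adjusted p = 0.039). Leptotene and zygotene markers had a median of -0.035, at 1010 to 1640 and 1030 to 1330 TPM. Of 10 spermatid markers, 5 were tested, with a median of -0.37 and sums of 33.2 to 83.2 TPM in controls and 20.4 to 34.4 TPM in cKO, and *Prm1* and *Tnp2* were at 0 in every library. Of the spermatid markers DESeq2 called *Acr* lower (adjusted p = 0.033). *Id4* and *Acr* are named here after their values were seen. Sertoli cell markers had a median of 0.078 with 0 of 10 called in edgeR, DESeq2 or limma-voom and 0 at an unadjusted p under 0.05, Leydig cell markers a median of 0.051, and peritubular, endothelial and macrophage markers a median of 0.064. Markers of rete testis and multiciliated duct epithelium had a median of -0.027 over the 7 of 10 genes that were tested, and summed to between 21.9 and 30.7 TPM in controls and between 20.7 and 30.1 TPM in cKO. The part of the pachytene marker level in the members' values was not tested.

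**Figure D5:**
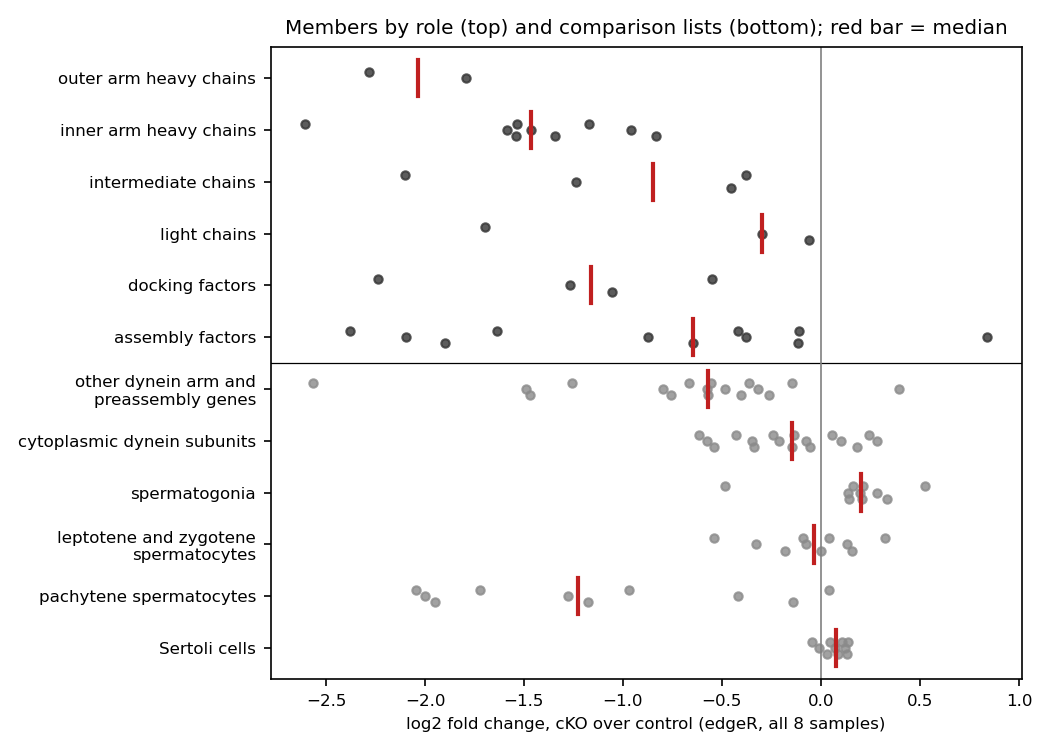
Log2 fold changes (x axis, edgeR, cKO over control, all 8 samples) of the tested members by role (upper rows) and of the comparison lists (lower rows), each point a gene and each red bar the median. Heavy chains and pachytene markers have medians between -2.04 and -1.23, and cytoplasmic dynein, spermatogonial, leptotene and zygotene, and Sertoli genes have medians between -0.15 and 0.20.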

How the data were processed

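RNA-seq of germ cells from 4 control and 4 cKO males was analysed. Per the labels, methods and the submitters' processing notes, the authors made non-stranded paired-end libraries of polyadenylated RNA, aligned reads to mm39 with STAR 2.7.9a and quantified genes with RSEM 1.3.3. The authors deposited RSEM expected counts, which are not normalised between samples, and TPM values, which RSEM scaled within each library for transcript length and depth.

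Expected counts were rounded, since 6.37% were not whole (tolerance 0.005), and a gene was kept where 1 or more samples reached a TPM of 1. Genotypes were compared with edgeR 4.0.16 (TMM, robust quasi-likelihood F-test, two-sided) on R 4.3.3, with Benjamini-Hochberg adjustment and a threshold of 0.05. DESeq2 1.42.0, limma 3.58.1 (voom, and log2(TPM + 1) or log2(TPM + 0.1)), other scalings, filters and sample sets were alternatives. The procedure was tested on simulated counts drawn independently with no shared replicate effect. That test does not cover the spread between replicates seen here. Each sample's total of expected counts sets the counting precision given in the text, and floors cover counting error only. Samples were grouped by the labelled genotype. Rows without a symbol (2.46%) were kept in library sizes since they carry gene identifiers. Positions and exon overlaps came from GENCODE (GRCm39), and promoters from RefSeq (GRCm38.p6).

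All members and *Mgat2* are named, and of some lists the 4 genes of highest control TPM. Any other gene is said to be named after its value was seen, apart from overlapping genes and the meiotic genes used to check the label. *Prm1*, *Tnp2*, *Gmnc* and *Mcidas* were likewise named after their low values were seen. The members and lists were chosen with earlier results of these data known.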

Additional observations from a re-analysis of the deposited data

Results flagged for a closer look

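In 15 of 68 groups of 4 samples (33 members and *Mgat2*, in 2 genotypes), the highest sample was separated from the next by more than Dixon's limit. This limit for 4 values is a share of the group's range, set for about 1 in 20 independent groups. The 68 groups come from the same 8 libraries and are not independent, so the 15 cannot be set against that share. Each time the sample was replicate 1, in 11 groups cKO 1 and in 4 groups control 1.

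Among heavy chains, cKO 1 was at 228 CPM for *Dnah8* (next sample 87.8), 71.0 CPM for *Dnah17* (13.7), 51.2 CPM for *Dnah1* (24.5) and 39.2 CPM for *Dnah7c* (21.7). Control 1 was at 312 CPM for *Dnah17* (next 92.8) and 33.3 CPM for *Dnah10* (11.9). Of the intermediate chain genes, *Dnai3* was at 11.0 CPM in cKO 1 (next 2.58) and *Dnai2* at 3.32 CPM (1.23). The docking factor genes *Odad3* and *Odad2* were at 10.8 and 4.32 CPM in cKO 1, with the next samples at 6.45 and 0.388 CPM. Among assembly factors, *Zmynd10* was at 33.7 CPM in cKO 1 (next 13.0), *Dnaaf4* at 12.4 CPM (8.74) and *Dnaaf1* at 50.8 CPM (15.0). *Dnaaf1* and *Dnaaf3* were at 166 and 15.3 CPM in control 1, with the next controls at 53.8 and 8.90 CPM. The cause was not tested.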

How the results depend on the processing

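The direction of the named members' differences was kept in all but 2 of the alternatives computed for them, both for *Dnal1*, whose log2 fold change ran from -0.106 to 0.013 when single libraries were left out and was above 0 without control 3 (0.001) and without cKO 1. The number of members called by edgeR, 0 over all samples, was 4 in DESeq2. It was 0 to 1 when single libraries were left out, the 1 being *Daw1* without control 4. With replicates 2 to 4 only, a choice made after seeing the data, it was 18 (855 genes in all). With a replicate block 22 members were called, among 1464 genes (7.25%), and DESeq2 with the replicate block, added after seeing the data, also called 22, among 1223 genes (6.06%). The labels give both genotypes the numbers 1 to 4 but no shared litter or day. Deviations of same-numbered samples correlated at 0.535, 0.145, 0.039 and 0.197, a mean of 0.229. For pairs of unlike number the mean was -0.068, with a range of -0.351 to 0.196. The pair of control 1 and cKO 1 was the highest, but not every sample correlated best with its own number. Whether the numbers mark a shared batch cannot be told from the labels, and the main fit used no block. Median log2 fold changes ran from -1.43 (without cKO 1) to -0.68 (without control 1) for all members, -1.86 to -1.02 for heavy chains, -0.97 to -0.14 for intermediate and light chains, -0.76 to -0.37 for assembly factors, and -1.57 to -0.68 for docking factors, with the same libraries at both ends. The cause of these shifts was not tested. Depth limits *Dnaaf6*, *Dnaaf6b*, *Odad2* and *Daw1*, which had few counts in some libraries.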
